A study of Mus musculus with 2 samples.

Results

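Regulators of G protein signalling (RGS proteins) were followed in mouse erythroid cells after knockdown of ETO2, the corepressor encoded by Cbfa2t3 that joins GATA-1 and TAL1 complexes. The 9 genes described are Rgs18, Rgs1, Rgs2, Rgs3, Rgs16, Rgs10, Rgs12, Rgs14 and Rgs19. They were chosen by name with their ratios on these same arrays already known, so their values are a description and carry no test. Every probe whose gene name in the scanner files was one of the 9 was taken, which gave 16 of the 41174 probes that are not controls, for 9 of the 27597 genes and transcripts they name. Of these, 12 probes, with at least 1 for each gene, were well above background on both arrays and were tested with all other such probes. The 4 others, 1 of Rgs2 and 3 of Rgs3, were above background in neither channel on either array.

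G1E-ER-GATA-1 cells are a GATA-1-null erythroid line derived from mouse embryonic stem cells that carries GATA-1 fused to the ligand-binding domain of the oestrogen receptor, so that β-estradiol switches GATA-1 activity on. The ETO2 siRNA cells were transfected with siRNA against ETO2 and the control siRNA cells with control siRNA. Both lacked endogenous GATA-1, carried ER-GATA-1 and then received β-estradiol for 24 h to start erythroid maturation. Labelled RNA of both was hybridised together on 2 two-colour Agilent arrays, the ETO2 siRNA RNA in green (Cy3) and the control siRNA RNA in red (Cy5) on both, from 1.2 µg of total RNA per dye. With no dye swap, dye and siRNA cannot be told apart. The labels do not say whether the replicates were separate cultures, so the spread between arrays may be technical. All cells came from 1 line.

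G protein-coupled receptors act by making the alpha subunit of a heterotrimeric G protein exchange GDP for GTP, which frees alpha from the beta-gamma dimer and lets both act on effectors such as adenylyl cyclase and phospholipase C beta. RGS proteins bind the GTP-loaded alpha subunit through their RGS domain and speed its GTP hydrolysis, which shortens the signal. The R4 subfamily (Rgs18, Rgs1, Rgs2, Rgs3 and Rgs16) consists mostly of small proteins with little beyond the RGS domain, the R12 subfamily (Rgs10, Rgs12 and Rgs14) acts mainly on alpha subunits of the inhibitory Gi class, and Rgs19 is of the RZ subfamily.

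The values below rest on 60-base probes, each of which reads 1 stretch of a transcript. The first 30 bases of the 12 tested probes are shown because probes of the same gene differed in ratio, and the letters identify which stretch each ratio belongs to. They are written 5′ to 3′ as in the scanner files, in lower case throughout because no part is singled out.
Rgs18, probe A_52_P541161: tgcttgaacgatgaagatggcatactttca
Rgs18, probe A_51_P325457: ttacataatgatggattgaggcttatagaa
Rgs1, probe A_51_P260683: cccttggataaccagtccaaaagtatatag
Rgs2, probe A_51_P419768: agggtgttgacgttcttaggactacagatc
Rgs3, probe A_52_P522134: gagcttcctgcaggacaagatctccctccc
Rgs3, probe A_51_P211980: tgagtcctttggccctttgggagctggaat
Rgs16, probe A_51_P249286: gagagaactcttttaagtataatattgtgt
Rgs10, probe A_51_P218774: gaccttccctctggatatgtgtattttatt
Rgs12, probe A_51_P125629: cctgtttacagttctgtgttctgactctgt
Rgs14, probe A_51_P389957: ggaggtgggcctagttccttggcataagca
Rgs19, probe A_52_P555235: tcaaaaaagagacctttcacattcatgtgt
Rgs19, probe A_51_P388984: ctctctattactccagggggccccacagtc
Over all 16 member probes the GC content ran from 35% to 60%. The longest run of bases shared by 2 probes was 7 within a gene and 9 between genes, so no pair of these probes reads the same stretch.

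Rgs18 restrains Gi and Gq signalling in platelets and megakaryocytes. Its brighter probe had a normalised signal of 138 and 133 scanner units in ETO2 siRNA cells on arrays 1 and 2, against 244 and 205 in control siRNA cells. The ETO2 siRNA channel was the lower one on both arrays and the groups did not overlap. The log2 ratio of ETO2 siRNA over control siRNA was -0.82 on array 1 and -0.63 on array 2, with a mean of -0.73 ± 0.14 (SD, n = 2 arrays), or 60.4% of the control level. The dimmer Rgs18 probe, with 114 and 109.9 units in ETO2 siRNA cells and 180 and 154 in control siRNA cells, averaged -0.57 ± 0.13 (SD, n = 2). Both probes were thus lower on both arrays. An offset of 50 units is added here to every signal before taking logs, and the brighter Rgs18 probe was at -1.04 without it and at -1.17 in the scanner software's processed signals.

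Rgs1, best known in B lymphocytes, where it dampens responses to chemokines, showed the largest difference of the 9 genes with this processing. Rgs18 was further from control without the offset, and Rgs18 and Rgs19 were with the processed signals, where Rgs1 and Rgs2 were both at -0.88. The Rgs1 probe read 449.7 and 440.0 units in ETO2 siRNA cells, against 851 and 824 in control siRNA cells. The channels were far apart on both arrays and the ratios nearly equal, at -0.92 and -0.90, which gave a mean of -0.91 ± 0.01 (SD, n = 2), or 53.1% of control. In absolute size this ratio stood at percentile 99.3 of all probes tested.

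Rgs2, which prefers alpha subunits of the Gq class, was close to background. The signal was 73.3 and 90.1 units in ETO2 siRNA cells and 83.5 and 99.9 units in control siRNA cells. The groups overlapped, although the ETO2 siRNA channel was the lower one within each array. The mean log2 ratio was -0.17 ± 0.03 (SD, n = 2). The probe was well above background in the control channel on both arrays but in the ETO2 siRNA channel on 1. Its size depended on how the background was treated: -0.44 without the offset and -0.88 from the scanner's processed signals.

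Rgs3 encodes several isoforms from different starts, and its probes did not give the same picture. The bright probe read 3329 and 2808 units in ETO2 siRNA cells, against 3798 and 4060.2 in control siRNA cells. The ETO2 siRNA values were both lower, but the arrays differed in how far, with log2 ratios of -0.19 and -0.53 and a mean of -0.36 ± 0.24 (SD, n = 2), or 77.9% of control. A second Rgs3 probe, drawn against another RefSeq transcript (NM_019492, where the bright one names NM_134257), read 89.6 and 97.8 units in ETO2 siRNA cells and 95.55 and 103 units in control siRNA cells. That probe averaged -0.08 ± 0.01 and did not pass the threshold. The other 3 Rgs3 probes name the same transcript as the bright one and were not well above background.

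Rgs16, an inducible member that acts on Gi and Gq alpha subunits, was at 103 and 111 units in ETO2 siRNA cells and at 97.0 and 110.0 units in control siRNA cells. The groups overlapped, and the mean log2 ratio of 0.05 ± 0.06 (SD, n = 2) did not pass the threshold.

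In the R12 subfamily the 3 genes differed in direction. Rgs10 is a short protein that is little more than its RGS domain. Its probe read 28458 and 27932 units in ETO2 siRNA cells, against 37537 and 39737 in control siRNA cells. The groups were well separated, with log2 ratios of -0.40 and -0.51 and a mean of -0.45 ± 0.08 (SD, n = 2), or 73.0% of control. The probe carried no saturation flag in either channel.

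Rgs12 was the only member with a higher signal in ETO2 siRNA cells that passed the threshold. It is a long protein with a PDZ domain, Ras-binding domains and a GoLoco motif that holds Gi alpha subunits in their GDP-bound state. Its probe read 9040.2 and 8593 units in ETO2 siRNA cells, against 5630.1 and 6058 in control siRNA cells. Both ETO2 siRNA values lay above both control values, with log2 ratios of 0.68 and 0.50, a mean of 0.59 ± 0.13 (SD, n = 2) and a fold of 1.51. The call was lost when each array was centred on its median in place of loess, where the ratio was 0.05.

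Rgs14, which shares the Ras-binding domains and the GoLoco motif of Rgs12, read 279 and 269.7 units in ETO2 siRNA cells, against 283 and 241 in control siRNA cells. The groups overlapped and the arrays had opposite signs, at -0.02 and 0.16. The mean was 0.07 ± 0.13 (SD, n = 2) and did not pass the threshold.

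Rgs19, also known as GAIP, acts on Gi alpha subunits, Gnai3 among them, and binds the scaffold Gipc1. The bright probe of Rgs19 had 319.5 and 372 units in ETO2 siRNA cells, against 601 and 570.3 in control siRNA cells. The groups stood apart, with log2 ratios of -0.91 and -0.62, a mean of -0.76 ± 0.21 (SD, n = 2) and 58.9% of control. The second probe, at 214 and 297 units in ETO2 siRNA cells and 311 and 368 units in control siRNA cells, was lower on both arrays too, with a mean of -0.42 ± 0.16 (SD, n = 2). The 2 probes of Rgs19 thus agreed in direction and differed in size.

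**Figure D1:**
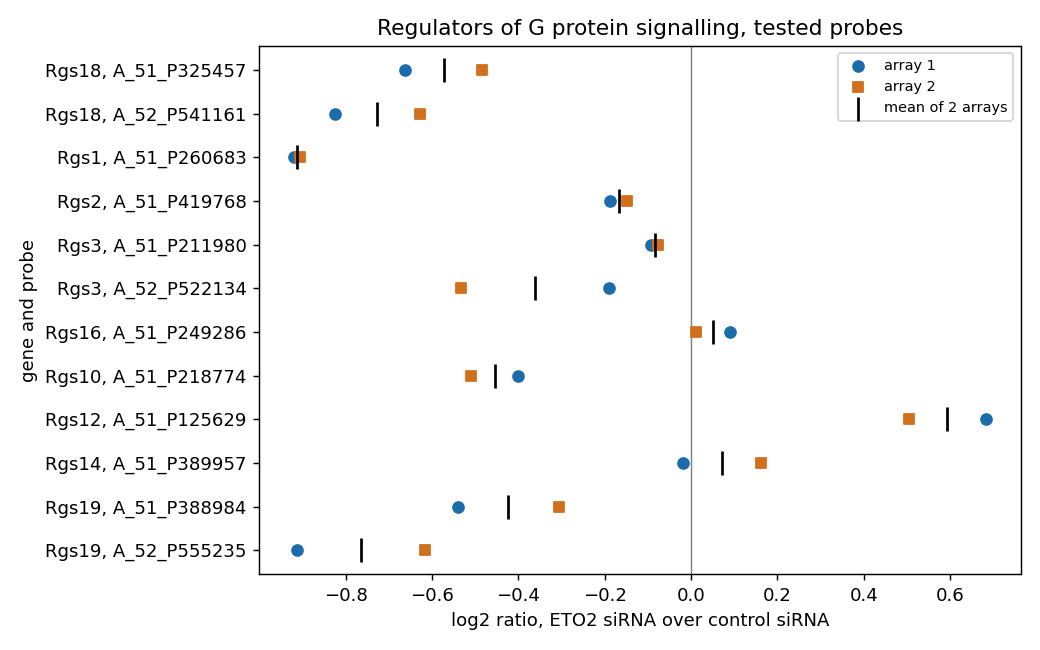
Log2 ratio of ETO2 siRNA over control siRNA (horizontal axis) of the 12 tested RGS probes (rows, gene and probe name); circles are array 1, squares array 2 and bars the mean of the 2 arrays. Both probes of Rgs18 and of Rgs19 lie left of 0 on both arrays, Rgs1 has nearly equal ratios of -0.92 and -0.90, and Rgs12 alone lies clearly right of 0, at 0.68 and 0.50.

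**Figure D2:**
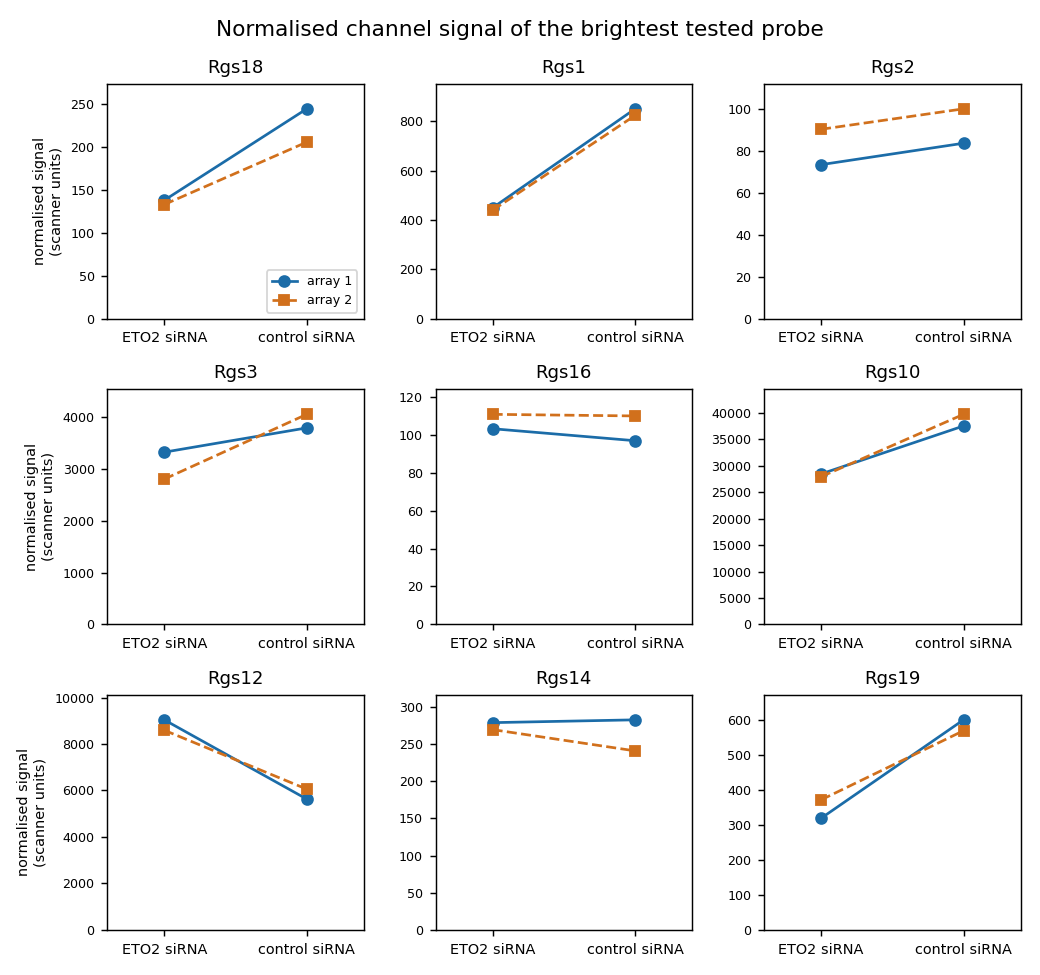
Normalised signal in scanner units (vertical axis, from 0, a different range in each panel) of each gene's brightest tested probe in ETO2 siRNA cells (left) and control siRNA cells (right); each line joins the 2 channels of 1 array. The lines of Rgs18, Rgs1, Rgs10 and Rgs19 climb towards control siRNA on both arrays, those of Rgs12 descend, and the lines of Rgs14 do not run the same way.

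By the brightest probe of each gene, 6 of the 9 RGS genes were called lower in ETO2 siRNA cells, 1 was called higher and 2, Rgs16 and Rgs14, did not pass an adjusted p of 0.05 in limma's test over 24426 probes. The same call rule took 20.7% of all probes tested as lower and 18.7% as higher. Since the genes were selected on these ratios, nothing is read from the count. The median log2 ratio over the 9 genes was -0.36, beside -0.01 over all probes tested. In absolute size the median was 0.45 over the 9 genes and 0.13 over all probes. The sign was the same on both arrays for 8 of the 9, Rgs14 being the exception. The same share over all probes was not counted, so nothing is read from this agreement. Over all probes tested the median SD between arrays was 0.06. A ratio of at least 0.5 in absolute size was found for 4 of them, Rgs18, Rgs1, Rgs12 and Rgs19, and for 4.91% of all probes.

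Rgs18, Rgs1, Rgs10 and Rgs19 kept their sign and their side of the threshold in all 9 alternative processings of both arrays. Centring each array on its median in place of loess shifted the median of all probes tested to -0.29. Relative to that shift Rgs18 was at -0.65, Rgs1 at -0.99, Rgs3 at -0.57, Rgs10 at -0.80, Rgs19 at -0.82 Rgs12 at 0.34, Rgs16 at 0.28 and Rgs14 at 0.08, while Rgs2 turned to 0.15. The same setting moved the share of higher probes among all calls to 4.52%, against 47.6% with loess. Rgs3 was no longer called with the scanner's processed signals, at -0.23.

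**Figure D3:**
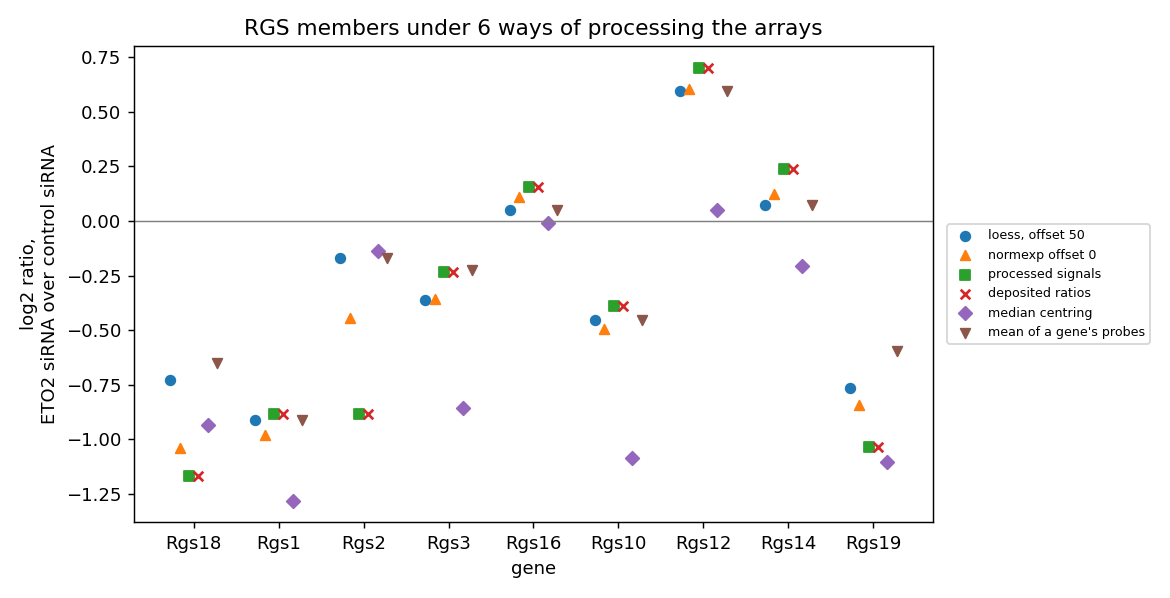
Log2 ratio of ETO2 siRNA over control siRNA (vertical axis) of the 9 RGS genes under 6 ways of processing the arrays (symbols). The values of Rgs18, Rgs1, Rgs10 and Rgs19 stay below 0 in each, Rgs2 spreads from -0.14 to -0.89, and the values with median centring (diamonds) of Rgs12, Rgs16 and Rgs14 lie lower than with loess, at 0.05, -0.01 and -0.21.

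Rgs18, Rgs1 and Rgs2 lie together on chromosome 1. In RefSeq's order of protein-coding genes, the 3 genes between Rgs2 and Rgs18 are Rgs13, Rgs1 and Rgs21. Of this run, Rgs1 and Rgs18 had the large ratios given above and Rgs2 a small one, while Rgs13 was not well above background and Rgs21 had no probe of that name. Among the 4 genes on the Rgs2 side, Uchl5 (-0.26 ± 0.01, adjusted p = 0.00434 in limma), Ro60 (-0.18 ± 0.01, adjusted p = 0.0302) and Glrx2 (-0.36 ± 0.02, adjusted p = 0.000368; SD, n = 2 each) were lower in ETO2 siRNA cells. Other probes of Ro60 ran from -0.08 to 0.20, and the second Glrx2 probe gave -0.12. B3galt2 on that side, and Brinp3, Pla2g4a, Ptgs2 and Pdc on the Rgs18 side, had no probe above background. Rgs16 is on chromosome 1 too but apart from this run, next to Rgs8. The others lie on chromosome 4 (Rgs3), chromosome 7 (Rgs10), chromosome 5 (Rgs12), chromosome 13 (Rgs14) and chromosome 2 (Rgs19).

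**Figure D4:**
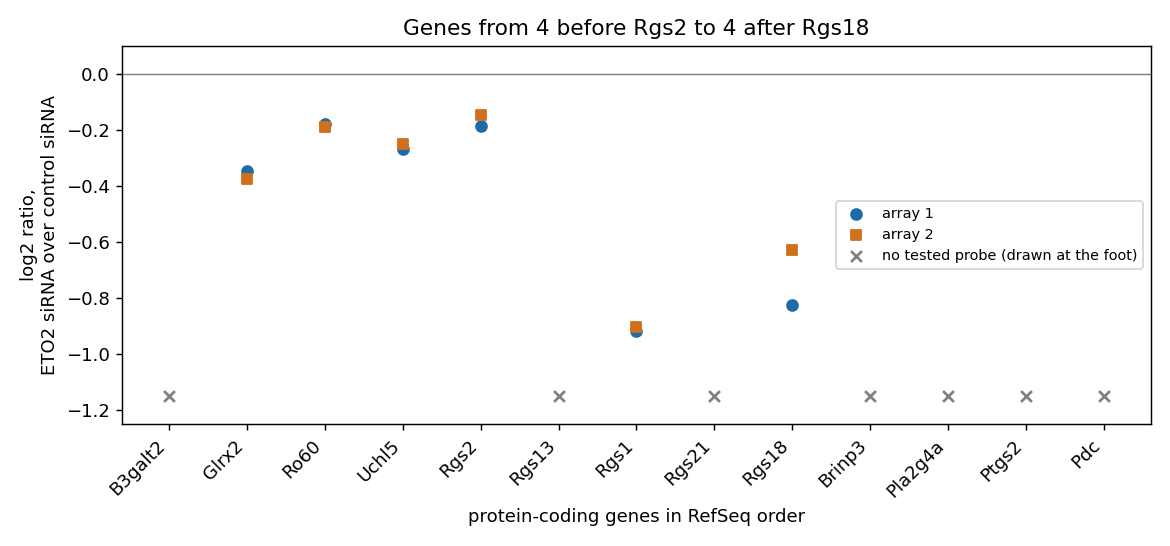
Log2 ratio of ETO2 siRNA over control siRNA (vertical axis) of the brightest tested probe of each protein-coding gene from 4 before Rgs2 to 4 after Rgs18, in RefSeq order (horizontal axis, no scale of distance); circles are array 1, squares array 2 and crosses at the foot mark genes with no tested probe. Rgs1 and Rgs18 lie lower than the other measured genes of the run, which sit between -0.15 and -0.38.

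GATA-1 binds a short motif, and the promoters of the members were searched on both strands for AGATAA and for the same word with T in place of its first letter, G in place of its last, or both changes. No 2 of these forms can start at the same base of a strand. RefSeq promoter windows (GRCm38.p6, the 250 bases before a gene's start) were given for 6 of the 9 genes, namely Rgs2, Rgs3, Rgs16, Rgs10, Rgs12 and Rgs19. Of their 10 windows 2 held 1 match each, 1 of Rgs3 and 1 of Rgs12, while 26.5% of all 32536 windows held at least 1. The windows with a match are shown with it in capitals, on the strand of the gene. They belong to 1 gene that was lower and 1 that was higher in ETO2 siRNA cells, and a match describes letters and not a bound site.
Rgs3, chr4:62619422-62619671, + strand, match from 124 bases before the start: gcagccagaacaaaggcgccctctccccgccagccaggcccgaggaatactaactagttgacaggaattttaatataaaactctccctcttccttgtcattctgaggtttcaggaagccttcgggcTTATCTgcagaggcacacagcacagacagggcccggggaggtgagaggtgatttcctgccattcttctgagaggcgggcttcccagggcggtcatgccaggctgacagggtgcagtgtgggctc
Rgs12, chr5:34998828-34999077, + strand, match from 150 bases before the start: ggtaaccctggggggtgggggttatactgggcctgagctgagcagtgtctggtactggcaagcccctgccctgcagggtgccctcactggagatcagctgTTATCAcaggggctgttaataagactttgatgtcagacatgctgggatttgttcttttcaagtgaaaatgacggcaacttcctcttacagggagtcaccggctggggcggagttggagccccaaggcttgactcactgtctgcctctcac

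The RGS proteins outside the 9 were mostly not detected. Of 12 listed, 11 had a probe and 2 were tested, with mean log2 ratios of ETO2 siRNA over control siRNA, the quantity given for all genes of the lists, of -0.02 for Rgs8 and 0.06 for Rgs11, neither of which passed. Rgs4, Rgs5, Rgs6, Rgs7, Rgs9, Rgs13, Rgs17, Rgs20 and Rgs22 were not well above background. Among 15 other proteins with an RGS domain, 13 were tested, 2 rose and 2 fell. Snx14, a sorting nexin, fell to -0.45 ± 0.17 (SD, n = 2; adjusted p = 0.000133) and Akap10, an anchor of protein kinase A, to -0.25 (adjusted p = 0.00558), although other Akap10 probes ran from -0.14 to 0.17. Arhgef1, a guanine nucleotide exchange factor activated by alpha subunits of the G12 class, rose to 0.26 ± 0.13 (adjusted p = 0.00607) and the receptor kinase Grk3 to 0.20 (adjusted p = 0.0200), with -0.01 from its other probe.

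Of the alpha subunits that RGS proteins act on, 13 of 15 were tested, 4 rose and 1 fell, with a median log2 ratio of -0.04. Gnai3, among the Gi subunits that Rgs19 acts on, was the subunit that fell. Its ratios were -0.67 and -0.49 on arrays 1 and 2, with a mean of -0.58 ± 0.13 (SD, n = 2, adjusted p = 8.37e-06 in limma). The Gi subunits Gnai1 (0.21, adjusted p = 0.0174, -0.22 from its other probe) and Gnai2 (0.17, adjusted p = 0.0491) rose. Gna14 of the Gq class (0.23, adjusted p = 0.0092) and the stimulatory subunit Gnas (0.34, adjusted p = 0.000936, with other probes from -0.21 to 0.27) also rose. The Gna14 probe was dim, at 97.9 and 98.7 units in ETO2 siRNA cells, against 82.6 and 85.0 in control siRNA cells. Its ratio was 0.79 with the scanner's processed signals.

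Among beta and gamma subunits, 13 of 17 were tested, 1 rose and 4 fell, with a median of -0.11. Gng2, a gamma subunit, fell furthest, with -1.19 and -1.20 on the 2 arrays, a fold of 2.29 (adjusted p = 2.81e-09) and -1.42 from its other probe. The gamma subunits Gng11 (-0.37, adjusted p = 0.000351) and Gng10 (-0.32, adjusted p = 0.00098) fell, as did Gnb5 (-0.34, adjusted p = 0.00125), a beta subunit that pairs with RGS proteins of the R7 subfamily. Gng13 rose to 0.26 (adjusted p = 0.00405), and was at 0.60 with the scanner's processed signals. Its probe was dim, at 115 and 122 units in ETO2 siRNA cells, against 95.0 and 103 in control siRNA cells.

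Of 44 receptors known from blood cells, 43 had a probe, 22 were tested, 3 rose and 7 fell, with a median of -0.07. The prostacyclin receptor Ptgir had the lowest ratio, -1.87 (adjusted p = 4.31e-11), against 0.06 from its other probe. The adenosine receptor Adora3 fell to -0.90 ± 0.11 (adjusted p = 7.61e-08) and the cannabinoid receptor Cnr2 to -0.69 ± 0.21 (adjusted p = 3.94e-06; SD, n = 2 each), each with a second probe below 0. The prostaglandin receptor Ptger4 (-0.48, adjusted p = 0.000123) and the sphingosine phosphate receptor S1pr4 (-0.33, adjusted p = 0.000711) fell, and the leukotriene receptor Ltb4r1 rose to 0.42 (adjusted p = 0.000152).

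Downstream, 22 of 30 effectors and second messenger enzymes were tested, 1 rose and 6 fell, with a median of -0.06. Of the inositol trisphosphate receptors, Itpr2 fell to -1.09 ± 0.04 (SD, n = 2; adjusted p = 7.24e-09, other probes from -0.83 to -0.02) and Itpr3 to -0.64 (adjusted p = 1.98e-06). The phospholipase Plcb2 (-0.54, adjusted p = 9.5e-06), the adenylyl cyclase Adcy7 (-0.53, adjusted p = 1.49e-05) and the phosphodiesterase Pde4d (-0.59, adjusted p = 4.38e-06) fell as well. Their other probes lay closer to 0, between -0.16 and -0.15 for Plcb2, at -0.12 for Adcy7 and between -0.22 and -0.06 for Pde4d. Prkar2b, a regulatory subunit of protein kinase A, rose, but its control channel was saturated and no fold is given.

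Among modulators and arrestins all 11 were tested, 3 rose and 4 fell, with a median of -0.10. The arrestins went opposite ways: Arrb2 fell to -0.49 (adjusted p = 4.51e-05) and Arrb1 rose to 0.41 (adjusted p = 0.000173). Gpsm3 with its GoLoco motifs fell to -0.46 (adjusted p = 5.74e-05), whereas its relatives Gpsm1 (0.36, adjusted p = 0.000612) and Gpsm2 (0.26, adjusted p = 0.00459) rose. Rap1gap, which binds Gi class subunits, fell to -0.56 (adjusted p = 7.19e-06), with -0.07 from its other probe. Gipc1, the scaffold of Rgs19, was at 0.09 ± 0.07 and did not pass (adjusted p = 0.301).

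**Figure D5:**
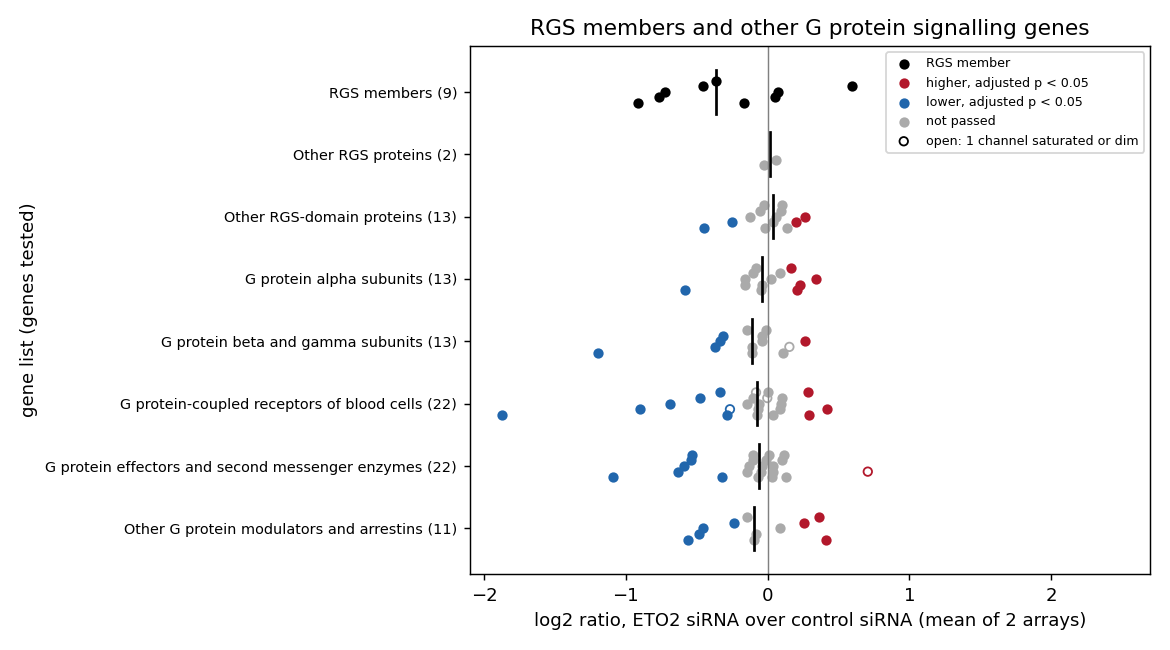
Log2 ratio of ETO2 siRNA over control siRNA (horizontal axis, mean of 2 arrays) of each tested gene of the RGS group and the 7 pathway lists (rows, number of genes tested in parentheses); each point is 1 gene, bars are list medians and open points are genes with a saturated or dim channel. The medians of the 7 lists lie between -0.11 and 0.04, with Gng2, Itpr2 and Ptgir as the lowest points of their lists.

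Over the 7 lists, 96 of 144 genes were tested, 14 rose and 24 fell. By the brightest probe of each gene that is 39.6% called, beside 39.4% of all probes, where a gene can count more than once. With the scanner's processed signals 22.9% of the pathway genes were called, beside 11.3% of all probes, and with the authors' deposited table of ratios 21.9%, beside 10.6%. The lists were chosen with earlier results of these data known, so nothing is read from these shares. With median centring in place of loess none of the 24 that fell changed sign, while 7 of the 14 that rose lay below 0, namely Arhgef1, Gnai1, Gnai2, Gnas, P2ry1, Gpsm2 and Arrb1. Relative to the shift of all probes under that setting, 1 of the 14 (Gnai2, -0.03) and 1 of the 24 (P2ry14, 0.07) changed sign. With the scanner's processed signals none of the 38 changed sign, but many no longer passed in limma. Every called gene among the other RGS-domain proteins was lost: Grk3 (0.26, adjusted p = 0.126), Arhgef1 (0.35, adjusted p = 0.0610), Snx14 (-0.16, adjusted p = 0.288) and Akap10 (-0.17, adjusted p = 0.199). So were the alpha subunits Gnai1 (0.12, adjusted p = 0.382), Gnai2 (0.11, adjusted p = 0.380), Gnai3 (-0.38, adjusted p = 0.0609) and Gnas (0.21, adjusted p = 0.188), while Gna14 still passed. Gpsm3 (-0.36, adjusted p = 0.0540) and Rap1gap (-0.33, adjusted p = 0.0594) were lost too, and these are not all.

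Markers of the cell types in which RGS genes are best known did not all move together with them. Of 13 megakaryocyte and platelet markers 12 were tested, and Gp9 (1.19), Gp6 (0.68) and Pf4 (0.36, and 0.09 with median centring relative to the shift of all probes) were higher while Itgb3 (-0.63) and Gp1ba (-0.36) were lower, with Ppbp not above background. Their summed signal was 26638 and 29813 units in ETO2 siRNA cells, against 27048 and 31202 in control siRNA cells. That it was slightly lower in ETO2 siRNA cells within each array rested on Itgb3, without which it was higher. Itgb3 read 8278 and 8606 units in ETO2 siRNA cells, against 12366 and 13794 in control siRNA cells. Pf4 went the other way, with 8101 and 9704 units in ETO2 siRNA cells against 6334 and 7570 in control siRNA cells, and so did Gp9. Of 10 lymphocyte markers 7 were tested and 2 were lower, among them Cd3e (-0.26), with sums of 889 and 904 units in ETO2 siRNA cells and 956 and 1019 in control siRNA cells. Mast cell and basophil markers summed to 608 and 622 units in ETO2 siRNA cells, against 875 and 858 in control siRNA cells. Without Hdc the sums were 442 and 447 units in ETO2 siRNA cells, against 417 and 425 in control siRNA cells. In that list 5 of 9 were tested, Mcpt4 was higher (0.49, but 0.006 from its other probe), Hdc was lower (-1.38), and Tpsb2, Tpsab1, Ms4a2 and Mcpt8 were not above background. The Mcpt4 probe was dim, at 123 and 133 units in ETO2 siRNA cells, against 89.6 and 92.2 in control siRNA cells. The higher sums without Hdc in ETO2 siRNA cells rested on Mcpt4. Of the granulocyte and macrophage markers 5 of 10 were tested and Prtn3 was lower (-0.33), with sums of 548 and 581 units in ETO2 siRNA cells and 576 and 607 in control siRNA cells. Elane, Itgam, Lyz2 and Adgre1 were not above background. Every signal in these sums includes the offset of 50 units, which weighs most in the lists of dim markers. In bulk RNA fewer cells of a type and less RNA per cell cannot be told apart, and the part of these markers in the RGS ratios was not tested.

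The genes with ratios most like those of Rgs18 were Lmo4 (-0.81 and -0.61 on arrays 1 and 2), Siglecf (-0.80 and -0.64) and Stx11 (-0.80 and -0.65). Likeness was the Euclidean distance between the ratios on the 2 arrays, 0.0229, 0.0289 and 0.0341 in that order, over 12366 candidate genes. With 2 arrays such a distance ranks sizes and nothing else.

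On the whole arrays, 24426 probes passed the filter on dim probes, with 4578 higher and 5046 lower in ETO2 siRNA cells, and 92.4% of these calls were under 1.5-fold. Cbfa2t3 itself was at 74.6% of control by its brighter probe (-0.42 ± 0.05, SD, n = 2; adjusted p = 0.000101) and at 85.6% by the other (adjusted p = 0.0106). The call of the brighter probe was lost with the processed signals (-0.37, adjusted p = 0.0509). The labels name an erythroid tissue and also embryonic stem cells. All 7 erythroid markers tested were called higher, among them the membrane protein Slc4a1 (2.88). They include Hba-a1, whose ratio cannot be read because both its channels were saturated. With median centring, relative to the shift of all probes, Klf1 (-0.10) and Tfrc (-0.03) lay below 0 and Epor at 0.21. Klf1 (adjusted p = 0.0942 in limma) and Tfrc (adjusted p = 0.128) did not pass with the processed signals. Of 8 embryonic stem cell markers 3 were tested: Utf1 was lower (-0.23), and Dppa5a and Tdgf1 were above background and did not pass. Pou5f1, Nanog, Sox2, Zfp42 and Dppa3, among them the defining pluripotency factors, were not above background. The summed erythroid signal was 225780 and 246322 units in ETO2 siRNA cells, against 117189 and 118639 in control siRNA cells, and includes Hba-a1, whose probe was saturated in both channels. Its part in the RGS ratios was not tested.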

How the data were processed

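Total RNA of ETO2 siRNA and control siRNA cells was compared on 2 two-colour Agilent arrays. Per the file headers, spot and background intensities in scanner units came from Agilent Feature Extraction 9.1.3.1. The deposited log10 ratios of red over green equal the scanner's own ratios within 0.00412, and their sign was turned here. The genome build was not given in the sources used here. The flags of the deposited files (other columns) marked controls, saturation and spots well above background.

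The mean spot signals were background-corrected with normexp (offset 50) against the local background and normalised by loess within each array. The log2 ratios, computed here from the deposited intensities, were tested against 0 with limma 3.58.1 in R 4.3.3, two-sided, with Benjamini-Hochberg adjustment over 24426 probes. A probe entered if the same channel was flagged as above background on each array. Each probe has 1 residual degree of freedom, and an exact sign permutation over 2 arrays cannot go below p = 0.5. A gene stands for its brightest tested probe. Channel signals were scaled between arrays on their average (Aquantile). A gene called by limma at an adjusted p under 0.05 is written as higher, lower, rose or fell.

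Probes were named through RefSeq by accession (24375), symbol (6301) or synonym (2426), and 8072 kept the file's name. The 9 members, 7 pathway lists and 6 marker lists were chosen with earlier results of these data known. Named from the lists were all genes past the threshold or, with more than 6, the 6 with the largest ratios; outside that rule stand Rgs8, Rgs11, Gipc1, P2ry1 and P2ry14, chosen after their values were seen. Genes resembling Rgs18 were the 3 at the smallest distance. The number of arrays limits the precision. The ratios were recomputed under 10 planned settings of background, normalisation, filter, probe choice and arrays, and under another chosen after seeing the data. Some genes of the lists and the gene order are not reported here by name.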

Additional observations from a re-analysis of the deposited data

How the results depend on the processing

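Of the values recomputed under other processing, 145 kept their direction and call (or, for counts, stayed within 1.5 times), though some changed in size. Of the others, 18 counts moved by over 1.5 times, 7 ratios lost their call and 3 changed sign. With 1 array left out a ratio had no test, so those ratios could keep only their direction. With the scanner's processed signals 1411 probes were higher and 1347 lower, with the authors' deposited ratios 1329 and 1254, and with median centring 732 and 15451. With 1 array left out, counting ratios of at least 1.2-fold, 2423 to 3254 were higher and 2788 to 3287 lower. Of the pathway genes, 8 were higher and 14 lower with the processed signals, 8 and 13 with the deposited ratios, 4 and 66 with median centring, and 6 to 8 were higher with 1 array left out. No RGS member (0) was called higher with median centring, where Rgs12 was at 0.05, Rgs2 at -0.14, Rgs16 at -0.0100 and Rgs14 at -0.21, past the threshold; that setting shifted the median of all probes to -0.29, and relative to it Rgs16 was at 0.28 and Rgs14 at 0.08. Rgs14 was at -0.0194 on array 1 alone and at 0.16 on array 2 alone. Cbfa2t3 gave -0.37 (adjusted p = 0.0509 in limma) with the processed signals and -0.37 (adjusted p = 0.0525) with the deposited ratios. Rgs3 gave -0.23 with both. With each array's loess ratios centred on the median of the probes tested, an alternative chosen after seeing the data, Rgs2 was at -0.16 and lost its call. Rgs2 was not among the 8 members left when both channels had to be above background. The cause of these shifts was not tested. Dim probes limit Rgs2, Rgs16 and Rgs18. Before background correction, ETO2 siRNA signals on arrays 1 and 2 were 63.1 and 70.4 units for Rgs2 and 86.7 and 87.6 for Rgs16. The brighter Rgs18 probe was at 112 and 101 units. The median local background was 44 to 47 units. No paired analysis was possible because each ratio already sets the channels of 1 array against each other and there is 1 group of ratios.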
